A study of Mus musculus with 44 samples.

Results

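The 10 genes described here are effectors and transcription factors of the integrated stress response: Atf4, Atf5, Ddit3, Trib3, Asns, Chac1, Fgf21, Gdf15, Mthfd2 and Psat1. They were chosen by name from this pathway, and all 10 are among the 53715 genes of the RNA table. In the chromatin tables they are represented by every peak that overlaps the gene span extended by 5 kb on each side, which gave 87 peaks in 5 tables. Adult wild-type (WT) mice were compared with adult Polg(D181A) mice, which carry a mutated mitochondrial DNA polymerase. As background that the labels do not state, the mutant is a transgene under the Camk2a promoter, active in forebrain neurons, and the line is studied for mood episodes.

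The RNA data hold 20 libraries, 5 groups of 4, all from the midline thalamus, in its paraventricular nucleus (PVT). The WT group was euthymic and positive for cytochrome c oxidase (COX) staining, a readout of complex IV of the respiratory chain. The 4 Polg(D181A) groups combined a euthymic or depressive state with COX-positive or COX-negative staining. ATAC-seq, which reads open chromatin, covered 2 WT and 2 Polg(D181A) PVT libraries, and H3K27ac, the histone acetylation found at active regulatory DNA, covered 2 and 2 libraries in each of 4 regions, the PVT, the nucleus accumbens (NAC), the caudate putamen (CP) and the cortex (COR). Chromatin came from nuclei sorted on the neuronal protein NeuN. All RNA and H3K27ac samples share the strain C57BL/6, while the 4 ATAC samples are labelled C57BL/7, C57BL/8, C57BL/9 and C57BL/10. Behavioural state is labelled only for the RNA samples. No label ties replicates to different animals. The p-values therefore reflect only how these samples vary, which may be technical.

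In the integrated stress response, kinases that sense unfolded protein, amino acid shortage, viral RNA or mitochondrial damage phosphorylate the initiation factor eIF2. General translation falls, while translation of the Atf4 mRNA rises, and ATF4 then switches on genes for amino acid synthesis, one-carbon metabolism, redox balance and cell death. Mitochondrial dysfunction is a known trigger, and the secreted factors FGF21 and GDF15 are used as blood markers of it. Because ATF4 is controlled largely at translation, its mRNA level does not measure its activity.

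ATF4 acts with C/EBP proteins at a composite DNA element whose core is TGATGNAA. A search of RefSeq promoters (GRCm38.p6, 250 bases before to 50 after each start, both strands) found it in 4 of the 10 genes, and these stretches are shown because they hold the element through which the pathway is known to act on its targets. The match is in capitals, and a match read on the opposite strand appears as its reverse complement.
Asns, chr6:7693210-7693268, minus strand: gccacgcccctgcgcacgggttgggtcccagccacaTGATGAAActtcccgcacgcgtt
Chac1, chr2:119351013-119351092, plus strand: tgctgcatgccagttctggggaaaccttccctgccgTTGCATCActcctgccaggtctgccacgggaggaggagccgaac
Fgf21, chr7:45615586-45615665, minus strand: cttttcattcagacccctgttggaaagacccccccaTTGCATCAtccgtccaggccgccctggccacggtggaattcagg
Trib3, chr2:152344031-152344054, minus strand: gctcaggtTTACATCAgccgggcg

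Counted from +1 at the start, the Asns match spanned −23 to −16 and the Trib3 match 15 to 22. The Chac1 match spanned −193 to −186 and the Fgf21 match −139 to −132. The matches of Asns, Chac1 and Trib3 lay inside an open PVT peak, and that of Fgf21 did not. Among all 17491 protein-coding genes with a promoter entry, 4.13% held the element, and in 91 other genes of the pathway, listed with earlier results of these data known, 16 did (17.6%). It was found in 5 of 9 cytosolic tRNA synthetase genes (Aars, Gars, Iars, Tars and Yars) and in 3 of 6 further transcription factors of the pathway (Atf3, Jdp2 and Nupr1). Of 12 genes for amino acid synthesis and transport, 4 held it (Got1, Pycr1, Slc1a4 and Slc7a11). Of 18 other ATF4 and CHOP targets, 3 held it (Herpud1, Pck2 and Vldlr), and of 10 genes for eIF2, its exchange factor and its phosphatases, 1 did (Eif2s3x). It was in 0 of 15 genes of the IRE1, XBP1 and ATF6 branch of the unfolded protein response, 0 of 9 for serine, glycine and one-carbon synthesis, 0 of 6 kinases and relay factors, and 0 of 8 mitochondrial chaperones and proteases. The cAMP response element TGACGTCA was in none of the 10 members and in 2.54% of all genes. A match describes letters in this window and is not a shown binding site.

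CpG content differed between genes with and without an open start. Promoters of the 10403 genes with an ATAC peak within 1 kb of a start had a median of 22 CpG in this window, and the 7088 genes without one had 3. The start with the most CpG was taken for each gene, by which Ddit3 had 22 and Gdf15 had 7. Ddit3, with the highest open start peak among the members, and Gdf15, with no open start peak, are printed as examples. The stretches are the 250 bases before their outermost start, with CpG in capitals.
Ddit3, chr10:127290543-127290792, plus strand: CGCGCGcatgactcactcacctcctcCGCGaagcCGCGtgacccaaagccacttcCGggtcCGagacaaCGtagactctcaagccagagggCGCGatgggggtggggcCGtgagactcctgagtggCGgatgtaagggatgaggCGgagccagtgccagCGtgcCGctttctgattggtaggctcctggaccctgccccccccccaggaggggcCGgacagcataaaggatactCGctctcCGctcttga
Gdf15, chr8:70632457-70632706, minus strand: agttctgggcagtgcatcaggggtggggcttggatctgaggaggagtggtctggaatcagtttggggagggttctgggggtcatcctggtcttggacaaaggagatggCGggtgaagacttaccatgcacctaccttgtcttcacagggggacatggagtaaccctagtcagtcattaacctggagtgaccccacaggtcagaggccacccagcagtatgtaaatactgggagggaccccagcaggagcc

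The printed Ddit3 stretch holds 20 CpG and the Gdf15 stretch 1. Over the full promoter window, Atf4 and Ddit3 had 22 CpG each, Trib3 21, Asns 20, Chac1 17 and Mthfd2 15. Psat1 had 30 and 20 at its 2 starts, Fgf21 had 9, and Gdf15 had 7 and 1. Atf5 differed between its 2 starts, with 32 CpG at the outer one and 8 at the inner one. Its open peak lay between them, at −467 to −35 from the inner one, and overlapped only the promoter window of the inner one.

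RNA totals ranged from 26719334 to 115285349 counts per library, with 27148 to 42978 genes detected. ATAC totals ranged from 2932270 to 8040451 and H3K27ac totals from 6415127 to 197650530, the lowest in NAC and the highest in COR. The RNA libraries of a group varied widely, with a common biological coefficient of variation of 1.36 over all genes. Summed RNA of 7 PVT and midline thalamus markers ranged from 210.9 to 2632 CPM (counts scaled to a library size adjusted by the TMM method), that of 6 neuronal markers from 141.9 to 2392, of 6 astrocyte markers from 37.8 to 875 and of 6 microglial markers from 8.31 to 262, and no listed marker was at 0 in every library. Sums were 7.52 to 921 CPM for 5 cortical, 1.82 to 397 for 6 striatal, 3.95 to 280 for 6 oligodendrocyte and 83.6 to 909 for 5 endothelial markers. Group ranges overlapped for the thalamic, neuronal, astrocyte and microglial sums, and the part of cell content in the RNA results was not tested. The TMM-adjusted size was 0.125 to 3.87 times the total in RNA, 0.889 to 1.12 times in ATAC and 0.646 to 1.67 times in H3K27ac, so that RNA levels of single libraries depend on this scaling. None of 6 oligodendrocyte and none of 6 microglial markers had a start peak in any chromatin table. Start peaks were called at 2 to 4 of 6 neuronal markers, at 2, 1, 2, 0 and 1 of 6 astrocyte markers (ATAC, then H3K27ac in PVT, COR, CP and NAC), and at 2 of 5 endothelial markers in ATAC and 0 elsewhere. In the same order they were called at 5, 3, 3, 2 and 2 of 7 thalamic markers and at 1, 1, 4, 3 and 1 of 5 cortical markers. For 6 striatal markers the counts were 2, 0, 1, 0 and 1. Start peaks of the striatal list thus did not set CP and NAC apart from the other regions. Polg itself ranged from 0.946 to 3.69 CPM in WT and from 0.559 to 199.9 in Polg(D181A) libraries. Of the euthymic COX-positive mutants, 1 of 4 lay above the highest WT library (log2 difference 4.25, SE 1.79, adjusted p = 0.273, edgeR). All euthymic COX-negative (7.75 to 139.6 CPM) and depressive COX-positive libraries (7.32 to 102.8) lay above it, and depressive COX-negative ones ranged from 0.861 to 197.2. Transgene and endogenous reads were not told apart. In such small tissue samples, fewer cells of a type and less RNA per cell cannot be told apart.

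The RNA of these genes was low and uneven. Of the 10, 8 had a median under 1 CPM over the 20 libraries, and in every gene the highest value stood far above the median. The 10 maxima fell in 9 different libraries: Asns and Psat1 peaked in the same depressive COX-negative library, Trib3 and Atf4 in 2 others of that group, Atf5 and Mthfd2 in 2 depressive COX-positive libraries, Fgf21 in a euthymic COX-positive mutant library, and Ddit3, Chac1 and Gdf15 in 3 WT libraries. The maxima of Fgf21 and Gdf15 rest on 8 and 2 reads, and a further WT library held more reads of both, 10 and 5. For the 7 members that passed the filter on low counts, a median of 68.8% of the gene's summed CPM came from a single library, against 44.0% over all 28446 tested genes. Exon lengths were not used here, so levels are given per gene and are not ranked between genes.

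**Figure D1:**
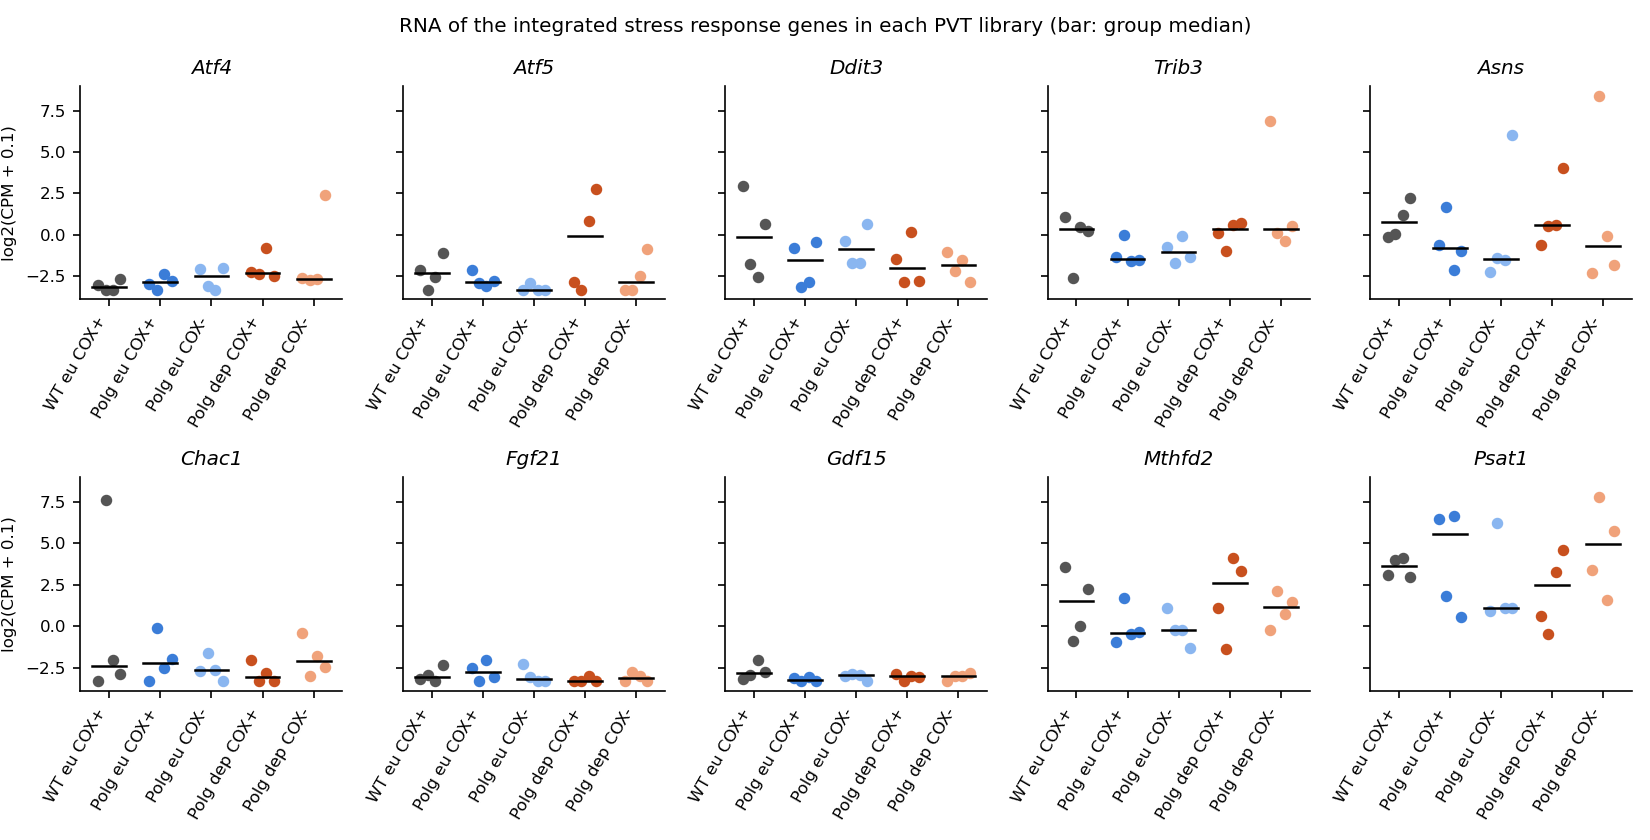
RNA level of each gene as log2(CPM + 0.1) on the y axis, with 1 point per library and a bar at the group median, for the 5 groups on the x axis (eu, euthymic; dep, depressive). Single libraries stand far above their group, as for Chac1 in 1 WT library (196 CPM) and Asns in 1 depressive COX-negative library (336 CPM).

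Among the transcription factors, Atf4, the central activator, had counts in 16 of 20 libraries, with a median of 0.0549 CPM. It reached 5.18 CPM in 1 depressive COX-negative library, and the next highest value was 0.472 in a depressive COX-positive one. Of the 8 depressive libraries, 8 lay above the median of the 8 euthymic mutant libraries (0.0366 CPM), but most hold only a few reads, and Atf4 did not pass the filter on low counts and was not tested. Atf5, an activator linked to the mitochondrial unfolded protein response, was at 0 in 7 of 20 libraries. Its depressive COX-positive libraries held 0.0366, 0, 1.65 and 6.73 CPM and its depressive COX-negative ones 0, 0, 0.0805 and 0.461. In euthymic mutants it had 0.132, 0.0347, 0.0179 and 0.0438 CPM in the COX-positive group and at most 0.0353 in the COX-negative group, so 2 libraries carried the high values and the groups overlapped.

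Ddit3, which encodes CHOP, a factor that promotes cell death under lasting stress, had counts in every library. WT libraries held 7.51, 0.189, 0.071 and 1.44 CPM, and mutants ranged from 0.0116 to 1.49 CPM. Thus 1 WT library stood above all others, and the other 3 lay within the range of the mutants. Ddit3 has 2 Ensembl identifiers in the table, with 1061 and 997 counts in all and equal counts in 8 of 20 libraries, so its reads may be split or shared and its level is uncertain. Trib3, a pseudokinase that ATF4 and CHOP induce and that feeds back on ATF4, had counts in every library. Euthymic mutants held 0.294, 0.89, 0.233 and 0.241 CPM in the COX-positive group and 0.487, 0.212, 0.845 and 0.298 in the COX-negative group. Depressive mutants held 0.988, 0.416, 1.39 and 1.52 CPM in the COX-positive group and 116, 0.981, 0.671 and 1.32 in the COX-negative group. All 8 depressive libraries lay above the euthymic mutant median of 0.296 CPM, and the 2 states overlapped between 0.416 and 0.89 CPM. WT libraries, with 1.98, 0.0631, 1.28 and 1.09 CPM, covered the range of most libraries of both states.

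Among the enzymes, Asns makes asparagine, Psat1 catalyses a step of serine synthesis and Mthfd2 is a mitochondrial enzyme of one-carbon metabolism. Asns had a median of 0.833 CPM and reached 336, 63.7 and 16.2 CPM in 1 library each of the depressive COX-negative, euthymic COX-negative and depressive COX-positive groups. The other 3 libraries of each of these groups held 0.0989 to 1.42 CPM. The order below 336 CPM depended on the scaling. The library at 63.7 CPM held 854 of 107075336 counts, with an adjusted size 0.125 times its total. The library at 16.2 CPM held 1493 of 115285349 counts. The WT library at 4.61 CPM held 492 of 27607219, with an adjusted size 3.87 times its total. As shares of unadjusted totals, this WT library stood above both, and the library at 336 CPM (14062 of 73448642) stood above all. Psat1 had the highest count of the members, with 19 of 20 libraries above 1 CPM, and its WT values, 8.45, 15.8, 17.3 and 7.6 CPM, lay closer together than those of any mutant group. Its mutant values ranged from 0.615 to 225 CPM, both below and above every WT library. Mthfd2 ranged from 0.289 to 17.01 CPM, and 7 of 8 depressive values exceeded the median of the euthymic mutants, 0.717 CPM. Its WT libraries held 11.8, 0.442, 0.923 and 4.58 CPM and overlapped both states.

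Chac1, a glutathione-degrading enzyme induced by ATF4, had 196 CPM in 1 WT library, 98.6% of its summed CPM over all libraries. Its other 19 libraries held at most 0.821 CPM, and 5 of them were at 0. The secreted factors were near the limit of detection. Fgf21 had 36 counts in all and at most 0.143 CPM, and Gdf15 had 25 counts in all and at most 0.142 CPM. Both were left out of the tests by the filter on low counts.

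The first comparison asked how the mutation moved these genes where COX staining was kept. Chac1 had the smallest p (log2 difference −7.53, SE 2.54, adjusted p = 0.213, edgeR quasi-likelihood test over all genes), with means of 0.261 ± 0.378 CPM in mutants and 49.1 ± 98.0 in WT (SD, n = 4 each). Without the WT library that held 196 CPM, its log2 difference was 2.39, in the opposite direction. Of the 7 tested members, 6 were lower in mutants and 1, Psat1, was higher, with a median log2 difference of −1.40 against −0.01 over all genes. None of the 7 passed an adjusted p under 0.05, and 1 had an unadjusted p under 0.05 (15.3% of all genes did). DESeq2 called 0 members, among 1165 calls over all genes. edgeR called 0% of 28446 genes here.

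The COX comparisons asked whether cells that had lost COX staining differed from those that kept it. In the euthymic state Asns had the smallest p (log2 difference 3.94, SE 2.10, adjusted p = 0.273), and without the COX-negative library at 63.7 CPM it was −2.30. In the depressive state it was Trib3 (4.78, adjusted p = 0.141), which came to −0.12 without the library at 116 CPM. Averaged over states it was Asns (4.03, adjusted p = 0.107, and 0.13 without the depressive library at 336 CPM), and 2 of 8 COX-negative libraries lay above the COX-positive mutant median of 0.952 CPM. The number of tested members higher in COX-negative libraries was 3, 4 and 5 of 7 in these comparisons, with median log2 differences of −0.34, 2.43 and 0.47, against −0.10, −0.03 and −0.04 over all genes. None passed in any of them. An unadjusted p under 0.05 was found for 0, 2 and 3 of 7, against 21.2%, 19.9% and 22.8% of all genes. DESeq2 called 0 members in each, among 2120, 2073 and 2192 calls over all genes. edgeR called 0% of all genes in each. The averaged comparison uses the same libraries as the other 2.

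The state comparisons asked what differed between depressive and euthymic mutants. In COX-positive libraries Atf5 had the smallest p (log2 difference 5.14, adjusted p = 0.170, edgeR), and in COX-negative ones Trib3 had (6.00, adjusted p = 0.0862, and 1.10 without the library at 116 CPM). Averaged over COX classes, Trib3 was higher in the depressive state (log2 difference 3.69, adjusted p = 0.0690) and Atf5 likewise (4.24, adjusted p = 0.0701), and neither passed. Without the library at 116 CPM the Trib3 value was 1.23. Mean levels of Trib3 were 15.4 ± 40.6 CPM in depressive and 0.438 ± 0.279 in euthymic mutants (SD, n = 8 each). Those of Atf5 were 1.12 ± 2.34 and 0.0330 ± 0.0439 CPM, with 5 of the 8 depressive values over the euthymic median. Of the 7 tested members, 5, 6 and 4 were higher in the depressive state in these 3 comparisons, with median log2 differences of 1.37, 1.84 and 1.91 against −0.04, −0.12 and −0.06 over all genes. None passed, and 1, 1 and 2 of 7 had an unadjusted p under 0.05, against 17.5%, 22.6% and 22.2% of all genes. edgeR called 0% of all genes in the single-class comparisons and 1.24% when averaged, where 354 of 28446 genes passed. DESeq2 called 0 members within each class and 1, Atf5, when averaged (log2 difference 3.95, adjusted p = 0.0401), among 2143 of 37185 genes, and it gave no adjusted p for Trib3. The test of whether the COX difference changed with state had Trib3 first (log2 difference 4.63, adjusted p = 0.206, edgeR, and −0.27 without the library at 116 CPM). It called 0 of 7 members and 0% of all genes, with 1 member at an unadjusted p under 0.05 (22.3% of all genes). DESeq2 called 0 members there, among 1997 genes called. In none of the 5 comparisons of 2 groups did a tested member have groups that did not overlap, while 1.99% to 3.06% of all tested genes did.

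Of 122 other genes of the pathway, grouped in 9 lists, 115 were tested in RNA. Only 1 passed, in the comparison of states averaged over COX classes: Syvn1, which encodes a ubiquitin ligase of endoplasmic reticulum quality control, was higher in depressive libraries (log2 difference 6.25, SE 1.55, adjusted p = 0.0485, edgeR), where 1.24% of all genes passed. When any 1 of the 16 mutant libraries was left out, edgeR called 0 genes in that comparison, and the adjusted p of Syvn1 with only the 4 mutant groups fitted was 0.0718. In the other 7 comparisons 0 of 115 passed, with 15 to 33 at an unadjusted p under 0.05, against 15.3% to 22.8% of all genes. The smallest p belonged to Gpt2, an alanine transaminase, in mutant against WT (log2 difference −5.14, adjusted p = 0.210). For COX class it belonged to Herpud1, which acts in disposal of misfolded protein, in euthymic mutants (6.39, adjusted p = 0.123), to Edem1, a lectin of the same pathway, in depressive mutants (−6.92, adjusted p = 0.132), and to the amino acid transporter Slc38a7 averaged over states (5.04, adjusted p = 0.0543). For state it was Syvn1 in COX-positive libraries (10.22, adjusted p = 0.136) and Hmox1, the stress-induced heme oxygenase, in COX-negative ones (9.59, adjusted p = 0.0862). Herpud1 was first for the interaction (−10.75, adjusted p = 0.0534). The median log2 difference of the 115 genes lay between −0.39 and 0.25 in the 8 comparisons.

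Likeness across the 20 libraries was computed for the 8 members with counts in at least 15 of them, which leaves out Atf5 and Fgf21. Trib3 and Mthfd2 had a Spearman correlation of CPM of 0.71, and only 21 tested genes were more like Trib3. The genes most like Trib3 were Adprm (0.79) and Serpinb12 (0.78), and those most like Mthfd2 were Ctso (0.86) and Lypd9 (0.81). For Psat1 they were Acsl1 (0.81) and Pfkfb4 (0.74), for Asns Gm3760 (0.81) and Gm48324 (0.79), for Ddit3 Gm15401 (0.81) and Gm13274 (0.77), for Atf4 Olfr1066 (0.76) and Foxj1 (0.73), for Chac1 4930432O09Rik (0.82) and Casc1 (0.81), and for Gdf15 Gm44659 (0.85) and Smu1 (0.84). The best correlation of Atf4 with a tested member was 0.22 (Trib3), of Ddit3 0.15 (Mthfd2), of Asns 0.26 (Mthfd2), of Psat1 0.24 (Atf5), of Gdf15 0.29 (Mthfd2) and of Chac1 −0.02 (Psat1). These are descriptions over libraries that differ in depth and group, and values near 0 counts share ties.

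Open chromatin in PVT neurons was high at most of these starts relative to all open peaks. The levels were not compared with those at the starts of other genes. An ATAC peak lay within 1 kb of a start in 8 of 10 members, all but Fgf21 and Gdf15, against 59.5% of 17491 protein-coding genes. Over the 4 libraries, the start peak of Ddit3 had 44.9 ± 4.27 CPM (SD, n = 4), above 98.9% of all 89792 peaks, and those of Atf5 and Atf4 had 42.6 ± 8.27 and 37.4 ± 4.88 CPM. Chac1 followed with 32.8 ± 5.69 CPM, Asns with 27.03 ± 6.11, Mthfd2 with 23.0 ± 2.37, Psat1 with 18.9 ± 5.49 and Trib3 with 11.6 ± 3.63 (SD, n = 4 each). Open starts thus included genes with few or no RNA reads in many libraries, such as Atf5 and Chac1. The Atf5 peak also lies at the starts of Nup62 and Il4i1b. Gdf15 had 1 peak, inside the gene 1853 to 2324 bases past its start, with 20.7 to 28.9 CPM in the 4 libraries. Fgf21 had only a weak peak 4394 to 4716 bases past its start and beyond the gene's end, with 13 and 1 counts in WT and 30 and 25 in mutant libraries.

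**Figure D2:**
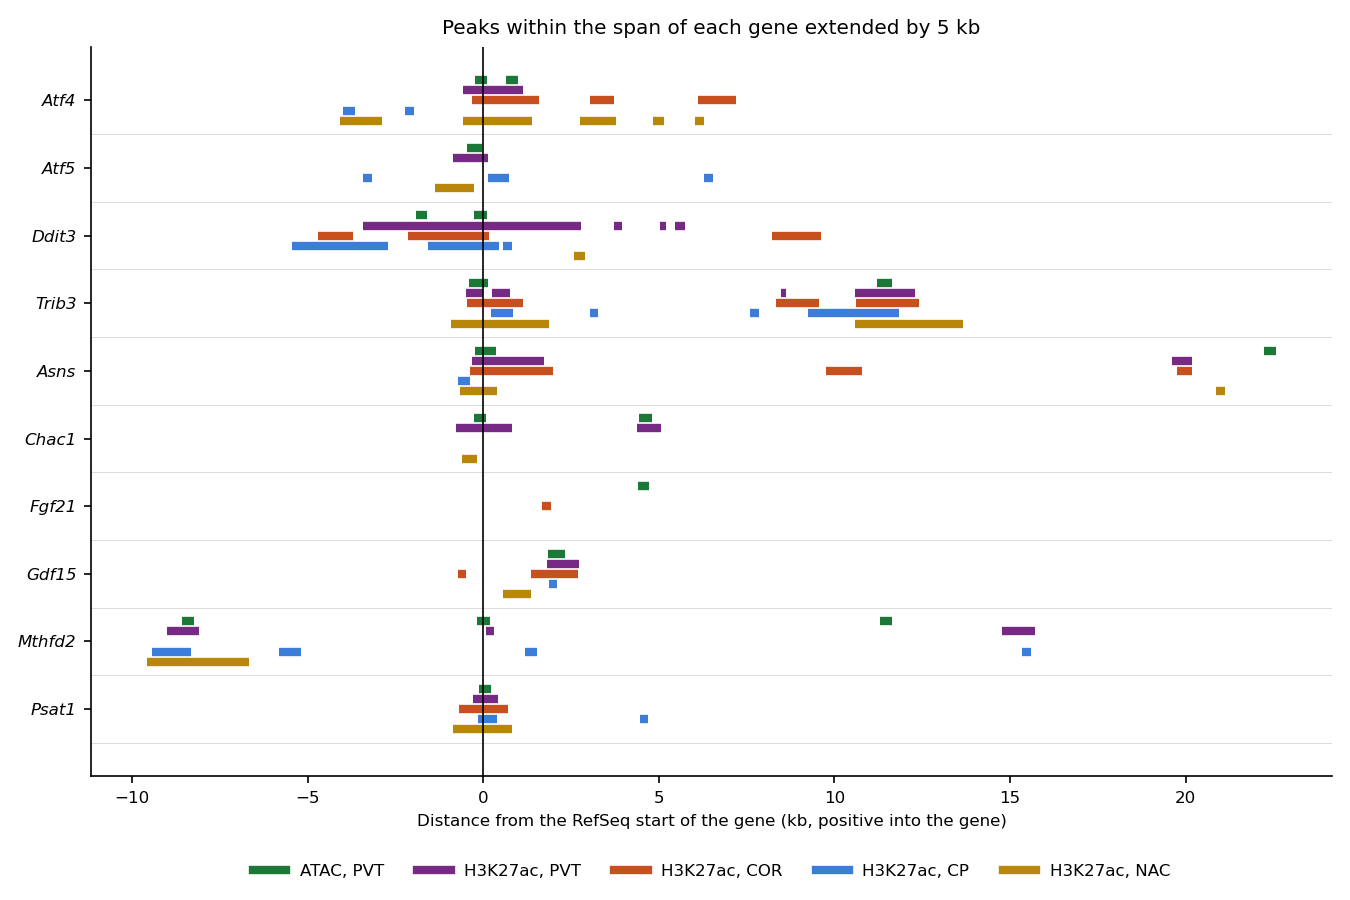
Position of each peak (bar) relative to the nearest RefSeq start of its gene, in kb on the x axis, for the 10 genes on the y axis and the 5 tables by colour. ATAC and PVT H3K27ac peaks lie at the start in 8 of 10 genes, while Gdf15 has its PVT peaks inside the gene and Fgf21 has no peak at its start in any table.

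The genotype comparison in ATAC asked whether the mutation changed access to these genes in PVT neurons. At the Ddit3 start the WT libraries had 47.6 and 42.6 CPM and the mutants 49.3 and 40.2. At the Atf4 start they had 42.8 and 38.1 against 31.0 and 37.7, at the Chac1 start 34.2 and 35.9 against 36.7 and 24.4, and at the Trib3 start 9.74 and 9.63 against 17.05 and 9.99. The genotypes did not overlap at 7 of the 17 tested member peaks (3 higher and 4 lower in mutants), a share of 41.2% against 40.8% of all tested peaks. The smallest p belonged to the distal Fgf21 peak (log2 difference 2.21, SE 1.11, adjusted p = 0.798, edgeR). None of the 17 member peaks passed, and 0 had an unadjusted p under 0.05. DESeq2 called 0 of them and 3 of all peaks, and edgeR called 0.00114% of 87600 peaks. Of the 17, 6 were higher and 11 lower in mutants, with a median log2 difference of −0.04 against −0.00 over all peaks.

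H3K27ac in PVT neurons marked the same 8 starts, against 51.4% of protein-coding genes. Ddit3 lay under a peak of 6187 bases that also covers the start of Mbd6, with 65.6 ± 3.93 CPM, and Atf4 had 38.8 ± 7.58 CPM (SD, n = 4 each). Asns had 20.1 ± 6.49 CPM and Chac1 13.1 ± 2.88, while the start peaks of Atf5, Trib3, Mthfd2 and Psat1 had 1.83 to 4.40 CPM on average. Gdf15 was marked inside the gene, 1820 to 2727 bases past its start, where it was also open. Fgf21 had no H3K27ac peak in PVT.

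**Figure D3:**
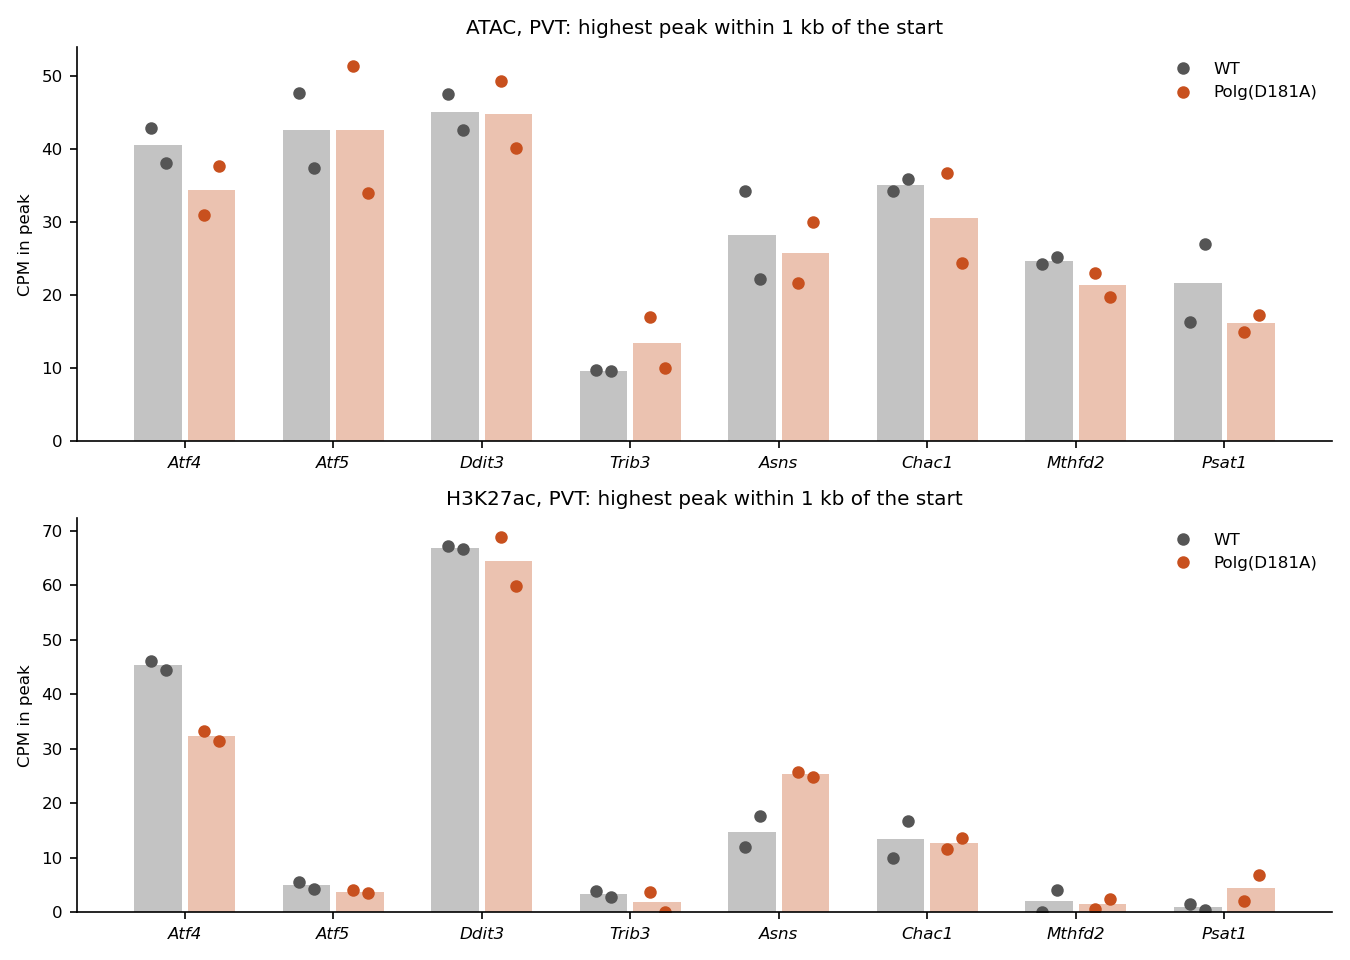
CPM in the peak with the most counts per kb within 1 kb of the start of each gene, for ATAC (top) and H3K27ac (bottom) in PVT, with bars at the mean and points for the 2 libraries of each genotype. In CPM per peak, H3K27ac at Ddit3 and Atf4 is the highest of these starts, but the peaks differ in length. Per kb of peak, Atf4 had 22.4 CPM, Ddit3 (6187 bases) 10.6, Asns 9.69 and Chac1 8.19. With 2 libraries per genotype no difference passed.

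In PVT, Atf4 had 46.2 and 44.5 CPM of H3K27ac in WT and 33.2 and 31.4 in mutants (log2 difference −0.49, adjusted p = 0.739). Asns had 12.001 and 17.6 CPM in WT and 25.7 and 24.9 in mutants (0.77, adjusted p = 0.672), and the peak inside Gdf15 had 6.82 and 8.95 against 14.6 and 13.1 (0.81, adjusted p = 0.800). None of these 3 differences passed. The genotypes did not overlap at 12 of the 19 tested member peaks (7 higher and 5 lower in mutants), nor at 46.7% of all tested peaks. The smallest p belonged to a 151-base peak beyond the end of Trib3, at 0 counts in both WT libraries and 135 and 232 counts in the mutants (adjusted p = 0.556). A 151-base peak in Ddit3 had the same form, with 0 and 0 against 118 and 126 counts. None of the 19 member peaks passed in edgeR, 2 had an unadjusted p under 0.05, DESeq2 called those 2 of 19 (13187 of all peaks), and edgeR called 0% of 121536 peaks. Mutants were higher at 9 and lower at 10 peaks, with a median log2 difference of −0.05 against −0.00 over all peaks.

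The other regions marked fewer of these starts: 6 of 10 in COR, 5 in CP and 7 in NAC, against 48.4%, 37.1% and 47.5% of protein-coding genes. Trib3, Asns and Psat1 had a start peak in all 4 regions, Atf4, Atf5 and Ddit3 in 3, Chac1 and Gdf15 in 2, Mthfd2 in PVT alone and Fgf21 in none. The Mthfd2 start peak was weak, above 25.7% of PVT peaks, with 17 and 268 counts in WT and 34 and 215 in mutants. Peaks in PVT, CP and NAC covered the upstream end of the Mthfd2 span and the start of Mob1a. They lay over 1 kb from the RefSeq start and were not counted. The Gdf15 start peak in COR had 389 and 0 counts in WT and 0 and 783 in mutants. In NAC it had 109 and 0 against 0 and 141. In CP, 16 of 20 member peaks had 0 counts in at least 1 library (91.0% of all peaks did), and several, such as a 251-base peak in Trib3 with 969 counts in 1 WT library and 0 in the other 3, rested on 1 library. In COR the smallest p belonged to the Psat1 start peak, with 399 and 1791 counts in WT and 0 and 11 in mutants (log2 difference −8.87, SE 3.05, adjusted p = 0.535). In CP it belonged to a peak upstream of the nearest start of Mthfd2 (−5827 to −5192), at 0 in both WT libraries and 69 and 950 counts in the mutants (adjusted p = 0.373), and in NAC to a peak beyond the end of Atf4, with 1124 and 329 against 0 and 26 counts (−4.56, adjusted p = 0.998). Tested member peaks numbered 16, 15 and 14 in COR, CP and NAC. None passed in edgeR, 2, 0 and 0 had an unadjusted p under 0.05, and DESeq2 called 2, 6 and 0, among 37716, 40171 and 2204 of all peaks. edgeR called 0%, 0% and 0.00476% of all peaks.

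The comparison of regions asked whether these genes carry as much H3K27ac in PVT as elsewhere, from the counts of all peaks of a gene, scaled over these sums, in the 6 members with a peak in every region. Atf4 had 51.7 ± 9.64 CPM in PVT, 51.0 ± 17.3 in COR, 14.4 ± 7.96 in CP and 101.7 ± 64.3 in NAC (SD, n = 4 each). It was higher in PVT than in CP (log2 difference 1.96, SE 0.52, adjusted p = 0.0155, edgeR), with 4 of 4 PVT libraries above all 4 CP libraries. The called length was 1.73 kb in PVT and 0.58 kb in CP, and per kb of peak the difference was 0.38 (adjusted p = 0.795). In CP no Atf4 start peak was called, and both peaks counted lie in the neighbouring Mief1, so that with no extension of the gene span Atf4 had no CP value. Ddit3 had 93.2 ± 3.97 CPM in PVT, 69.0 ± 31.3 in COR, 107 ± 13.4 in CP and 5.47 ± 4.64 in NAC (SD, n = 4 each). It was higher in PVT than in NAC (4.17, SE 1.07, adjusted p = 0.0142), where a single peak of 0.313 kb was called against 6.88 kb in PVT, and per kb the difference was −0.29. Neither gene passed per kb of peak.

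**Figure D4:**
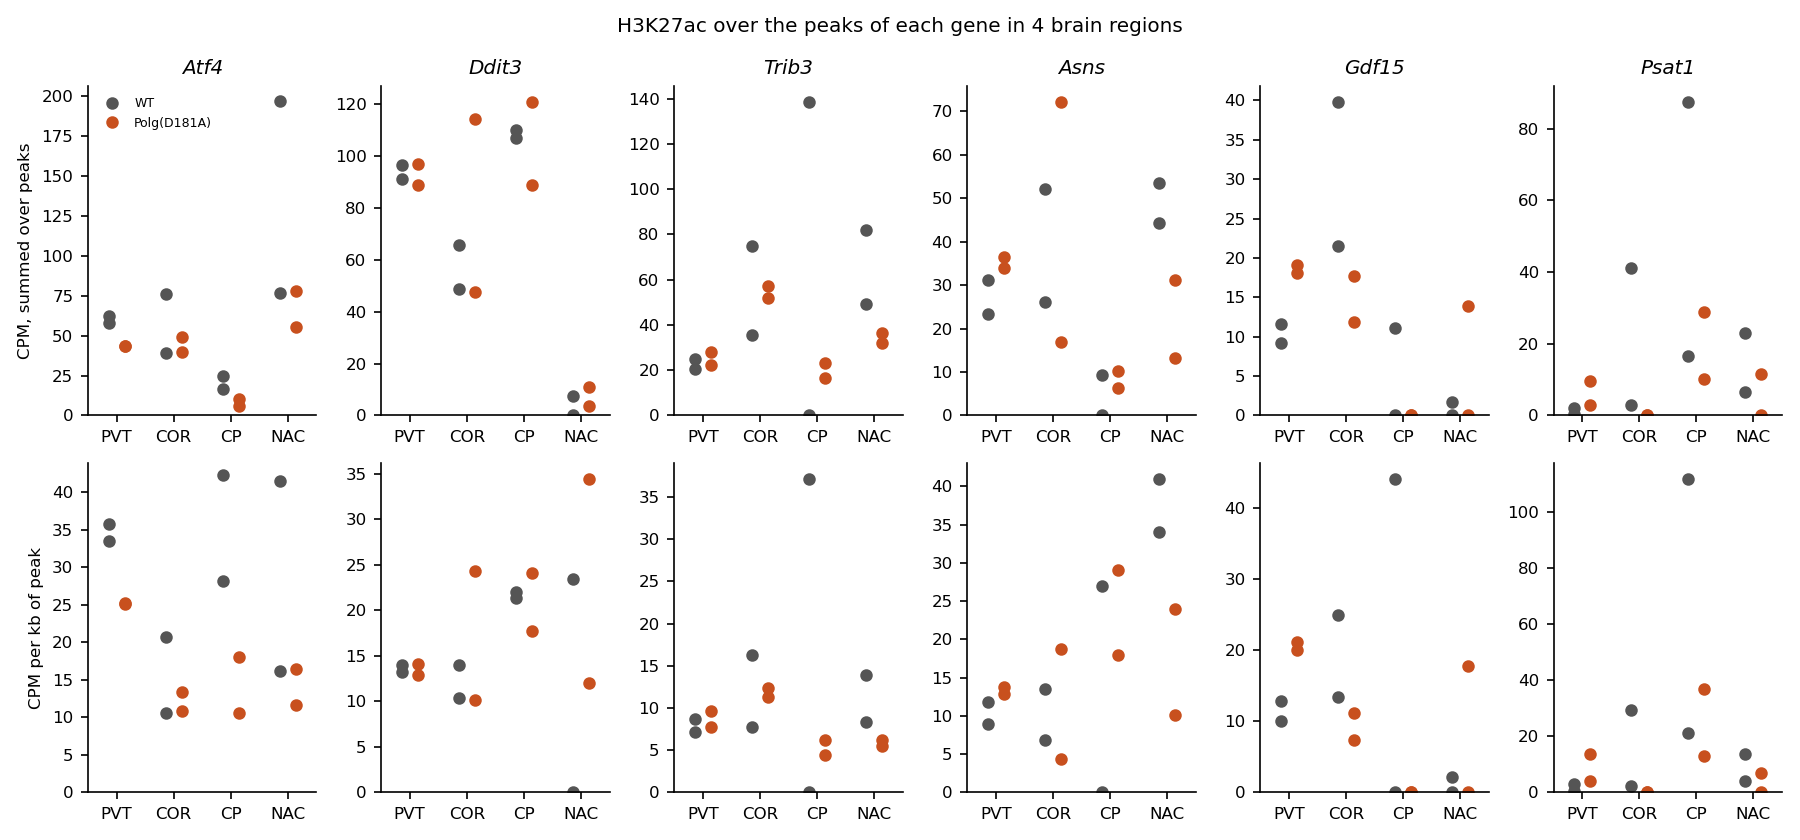
H3K27ac over the peaks of the 6 genes with a peak in all 4 regions, summed per gene in CPM (top) and per kb of peak (bottom), with 1 point per library and 2 libraries per genotype and region. Ddit3 is low in NAC in the sums and not per kb, and Trib3 in CP has 1 WT library at 139 CPM and the other at 0.

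The other members did not pass in these comparisons. Against COR, log2 differences (PVT minus COR) were 0.01 for Atf4, 0.47 for Ddit3, −1.18 for Trib3, −0.43 for Asns, −0.53 for Gdf15 and −0.19 for Psat1. There edgeR called 0 of 6 (0 at an unadjusted p under 0.05) against 12% of 12032 genes, and DESeq2 called 0 of 6, among 2233 genes called. Against CP they were −0.20 for Ddit3, −0.70 for Trib3, 2.28 for Asns, 2.64 for Gdf15 and −2.49 for Psat1, with 1 of 6 called against 16% of genes, where the median of all genes was 0.31. Against NAC they were −0.90 for Atf4, −0.94 for Trib3, −0.21 for Asns, 1.80 for Gdf15 and −0.71 for Psat1, with 1 of 6 called against 13.5% of genes. These 3 comparisons share the PVT libraries. For genotype averaged over the 4 regions, 0 of 6 passed and 0% of genes did. Atf4 had the smallest p there (log2 difference −0.79, SE 0.36, unadjusted p = 0.0425, adjusted p = 0.998, edgeR), the 1 member with an unadjusted p under 0.05. DESeq2 called 0 members, among 30 genes called. The others were 0.36 for Ddit3, −0.64 for Trib3, 0.07 for Asns, −0.38 for Gdf15 and −1.56 for Psat1.

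Of the 122 other pathway genes, 89 had H3K27ac peaks in all 4 regions. Against COR, 4 of the 89 passed, against 12% of all genes: 2 were higher in PVT, the chaperone Hsp90b1 (log2 difference 2.94, adjusted p = 0.0202, edgeR) and the tRNA synthetase Mars1 (2.28), and 2 were lower, the translation inhibitor Eif4ebp1 (−5.22) and the one-carbon enzyme Mthfd1 (−1.86). Mars1 overlaps the end of Ddit3 and can share its peaks. Against CP, 8 passed, against 16% of all genes: 3 were higher, the transcription factor Jdp2 (3.01), the co-chaperone Dnajc3 (3.02) and Hsp90b1 (2.51), and 5 were lower, among them Mthfd1 (−2.74) and the tRNA synthetases Eprs (−1.77), Yars (−1.82) and Kars (−2.93). Against NAC, where 13.5% of all genes passed, Mars1 (2.24) was higher, and Mthfd1 (−2.69) and Eprs (−1.77) were lower. These comparisons share the PVT libraries. Per kb of peak, 1 of the calls against CP also passed, Mthfd1 (−0.98, adjusted p = 0.0114), and none of those named against COR or NAC did. The Mthfd1 difference per kb was 0.08 against COR, in the other direction, and −0.35 against NAC. For genotype averaged over regions, 0 of 89 passed and 0 had an unadjusted p under 0.05, with Spg7, a mitochondrial protease, first (−1.51, adjusted p = 0.998). Start peaks were called in PVT at 86 of the 91 pathway genes with a promoter entry in ATAC and at 63 in H3K27ac. H3K27ac start peaks were called at 62 in COR, 50 in CP and 72 in NAC, so NAC marked more of these genes than PVT. The shares over all protein-coding genes were 59.5%, 51.4%, 48.4%, 37.1% and 47.5%, in the same order.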

How the data were processed

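The authors deposited raw counts per gene for RNA and per merged peak for ATAC-seq and H3K27ac, with 1 peak set per table. Per the submitters' processing notes, mm10 was the build, and DESeq2, featureCounts, STAR, Subread and HOMER were used. Not given in the sources used here are versions, roles, strand setting and peak thresholds. Groups came from the labels. The members and gene lists were chosen with earlier results of these data known.

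CPM are counts scaled to the TMM-adjusted library size. Counts were tested with edgeR 4.0.16 in R 4.3.3 (TMM scaling, filterByExpr, robust quasi-likelihood test, Benjamini-Hochberg adjustment over all features, threshold 0.05, two-sided), with 20 RNA libraries in 1 fit and each chromatin table alone. For regions, peak counts were summed per gene (span extended by 5 kb) over 16 H3K27ac libraries. The steps were tested on simulated data with less spread between libraries than in any of these tables, so that test does not measure their performance here. Alternatives were DESeq2 1.42.0, its size factors, other count filters, only the compared groups, no extension, counts per kb, a replicate block and leaving out each library. In each comparison the member with the smallest p was named, with the smallest-p gene of the pathway lists. Likeness was the highest Spearman correlation over 20 libraries, for genes with counts in at least 15. A start peak lay within 1 kb of a RefSeq start. The 4 input libraries were not used, and 1 result of the pathway lists is not reported here. Pairs of libraries were compared for identical counts, and none was found to be deposited again. The number of libraries and the depths limit the precision.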

Additional observations from a re-analysis of the deposited data

Results flagged for a closer look

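Of the 50 groups of 4 RNA libraries (10 genes in 5 groups), 14 (28%) held a highest library that stood apart from the other 3 by Dixon's 95% value. Over all tested genes, 37.9% of groups with any range held a library apart at either end, the highest or the lowest. Chance gives about 5% for a gap at either end where values are normally distributed. A group with 3 libraries at 0 passes Dixon's value by construction, as 2 of the 14 did. Atf4 had 0.472 CPM in 1 depressive COX-positive library and 5.18 in 1 depressive COX-negative library. Atf5 had 0.0353 CPM in 1 euthymic COX-negative library, with the other 3 at 0. Trib3 had 0.890 CPM in 1 euthymic COX-positive and 116 in 1 depressive COX-negative library. Asns had such a library in all 4 mutant groups, with 3.09 CPM and 16.2 CPM in the COX-positive groups (euthymic and depressive) and 63.7 CPM and 336 CPM in the COX-negative ones. Chac1 had 196 CPM in 1 WT library. Fgf21 had 0.108 CPM in 1 euthymic COX-negative and 0.0262 in 1 depressive COX-positive library. Mthfd2 had 3.20 CPM in 1 euthymic COX-positive library and Psat1 75.4 in 1 euthymic COX-negative library.

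In H3K27ac summed per gene, the mutants lay on opposite sides of WT in 2 regions in 6 cases, with no overlap of genotypes in either region. These differences between regions were not tested. Of 12032 genes with peaks in every region, 23.4% held at least 1 such case, and 3 of the 6 members among them did (Asns, Gdf15 and Psat1). Values are mutant minus WT means in CPM. Asns differed by 7.85 in PVT and −26.6 in NAC. Gdf15 differed by 8.22 in PVT and −15.8 in COR. Psat1 differed by 4.85 in PVT and −22.0 in COR. Mthfd2 differed by 6.37 in PVT, −28.9 in CP and −16.2 in NAC, where its only peak lies at the start of Mob1a. Atf5 differed by −1.50 in PVT and 5.78 in NAC. Each Atf5 value rests on 1 peak that also lies at the starts of Nup62 and Il4i1b. The NAC peak had 84 and 0 counts in WT and 33 and 108 in mutants.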

How the results depend on the processing

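Counts of members called moved as follows. With DESeq2, 1 member (Atf5) was called for state averaged over COX classes, among 2143 genes called. DESeq2 also called 2 of 19 member peaks in PVT, 2 of 16 in COR and 6 of 20 in CP. Over all peaks it called 13187 of 123818 in PVT, 37716 of 141298 in COR and 40171 of 127817 in CP. For PVT against CP the count of 1 became 2 with DESeq2 (Asns and Atf4, among 3304 genes called), 0 with no extension, 0 per kb of peak and 0 with the replicate block. It ranged from 1 to 2 when single libraries were left out, with Gdf15 added without CP WT library 1. For PVT against NAC it became 0 per kb and 0 with the replicate block. The cause of these moves was not tested. Over all genes, the 354 calls for state averaged over COX classes became 780 with DESeq2 size factors, 1887 with no filter, 206 with a stricter filter, 2143 with DESeq2 and 0 with only the compared groups.

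Some log2 differences changed sign. Against COR, they were −0.082 for Ddit3, 0.12 for Asns, 0.29 for Gdf15 and 0.81 for Psat1 per kb, and 2.13 for Psat1 with the replicate block. Against CP, Ddit3 was 0.11 with no extension and Asns −0.64 per kb. Against NAC per kb, Atf4 was 0.56, Ddit3 −0.29, Trib3 0.087 and Psat1 0.57. Leaving out single libraries gave −9.13 to 2.39 for Chac1 (mutant against WT), −2.30 to 5.44 for Asns (COX, euthymic), −0.12 to 5.41 for Trib3 (COX, depressive) and −0.27 to 5.27 for Trib3 (interaction). Between regions it gave −0.19 to 0.16 for Atf4, −0.70 to 0.046 for Asns, −0.91 to 0.046 for Gdf15 and −1.41 to 2.98 for Psat1 against COR, −1.03 to 0.97 for Trib3 against CP, and −0.55 to 0.026 for Asns and −2.07 to 1.25 for Psat1 against NAC. For genotype over regions it gave −0.79 to 0.23 for Trib3, −0.19 to 0.32 for Asns and −2.67 to 0.88 for Gdf15.

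With the replicate block, Atf4 against CP was 1.68 and Ddit3 against NAC 4.37, and neither passed. Same-numbered chromatin libraries deviated with correlations of −0.051, −0.012, 0.017, −0.027 and −0.044 in ATAC, PVT, COR, CP and NAC. No shared deviation was thus seen, but these values cannot tell whether same-numbered libraries were handled together. RNA columns carry no replicate number, so no paired analysis was possible there. RNA counts of Atf4, Fgf21 and Gdf15 were below the filter, so no RNA difference of these genes was tested.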
